A study of Mus musculus with 4 samples.

Results

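The canonical Wnt pathway was followed in mouse embryonic stem (ES) cells through 10 genes that were listed by name, *Axin2*, *Tcf7*, *Tcf7l1*, *Lef1*, *Sp5*, *Ctnnb1*, *Apc*, *Nkd1*, *Lgr4* and *Rnf43*. They were found by symbol among the 24054 genes of the RNA-seq count tables, and all 10 were present. The tables hold 4 libraries. One is from wild-type cells of the line wt26, and the other 3 are from Morc3 rescue clones, named 3C, 3D and 3M. Each rescue clone was isolated after a Morc3 knock-out (ko) clone of wt26 had been transfected with a PiggyBac transposon carrying the Morc3 cDNA and selected with puromycin, so all 3 clones share 1 ko parent. All cells were feeder-independent and grew on gelatin in medium with serum and LIF. The ko parent itself was not analysed here, and a difference between rescue and wild type can therefore come from the ko clone, the transgene or the culture, which cannot be told apart in these libraries.

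In the absence of a Wnt ligand, β-catenin (encoded by *Ctnnb1*) is held by a destruction complex built on Axin and Apc, phosphorylated by Gsk3 and degraded. Ligand binding to Frizzled and Lrp receptors stops this complex, and β-catenin then reaches the TCF/LEF factors on DNA. In ES cells Tcf7l1 is known as a repressor of pluripotency genes, Tcf7 and Lef1 as activators, and *Axin2*, *Sp5*, *Nkd1* and *Rnf43* are targets that in part feed back on the pathway.

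Depth was between 13620914 and 18789457 read pairs on genes per library, the highest in wild type. Wild type had 52.7% of its read pairs on genes, against 45.1% to 47.0% for the clones, and 14.5% unmapped, against 21.0% to 23.0%. This difference runs with the comparison of rescue and wild type, and its part in the Wnt results was not tested. Levels are given in CPM (a gene's read pairs per 1000000, TMM-scaled). Of all genes, 13267 passed the low-count filter and entered a quasi-likelihood fit in edgeR, from which every log2 fold change with its standard error (SE) and Benjamini-Hochberg adjusted p is taken unless another tool is named. Wild type is 1 library and is assumed to vary as the 3 clones do, and p-values measure the spread between clones of 1 ko line. *Morc3*, the gene put back, was at 161 CPM in wild type and at 655, 497 and 609 CPM in 3C, 3D and 3M. The ES cell markers fixed for the check were all above 100 CPM on average (13 of 13), and their summed level was 5871 CPM in wild type and between 6303 and 6814 CPM in the clones. Markers of other lineages were far lower in sum, at 6.55 to 10.5 CPM for mesendoderm (9 genes, led by *Eomes*, with *Lhx1* at 0), 25.6 to 50.3 CPM for fibroblasts (8 genes, led by *Thy1*, with *Col3a1*, *Dcn* and *Lum* at 0) and 52.8 to 82.2 CPM for trophoblast (5 genes, led by *Tfap2c*, which ES cells also express). The neuroectoderm markers (5 genes, led by *Tubb3*, with *Neurog2* at 0) summed to 76.9 CPM in wild type and to between 44.0 and 52.4 CPM in the clones, and the part of this difference in the Wnt results was not tested. In bulk RNA, fewer cells with a transcript and less of it per cell cannot be told apart.

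*Sp5* and *Axin2* are textbook Wnt target genes, and their upstream sequences are shown because their counts ordered the 4 libraries in opposite ways, as described further on. The order of *Sp5* rests on 1 to 9 counts per library, with exact counting intervals that overlap between all libraries, and it was not tested. Each is the stretch of 250 bases before a RefSeq start site (for *Axin2*, one that lies downstream of the first base of its RefSeq interval), on the plus strand of GRCm38.p6, read 5′ to 3′. *Sp5* is taken from chr2:70474673-70474922 and *Axin2* from chr11:108920099-108920348. Capitals mark the TCF/LEF core motif, searched as CTTTGAT and CTTTGAA on both strands.
Sp5: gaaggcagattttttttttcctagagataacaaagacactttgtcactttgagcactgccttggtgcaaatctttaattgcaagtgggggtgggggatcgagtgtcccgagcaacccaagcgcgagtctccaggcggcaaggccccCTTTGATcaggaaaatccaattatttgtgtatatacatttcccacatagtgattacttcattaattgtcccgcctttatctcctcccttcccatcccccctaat
Axin2: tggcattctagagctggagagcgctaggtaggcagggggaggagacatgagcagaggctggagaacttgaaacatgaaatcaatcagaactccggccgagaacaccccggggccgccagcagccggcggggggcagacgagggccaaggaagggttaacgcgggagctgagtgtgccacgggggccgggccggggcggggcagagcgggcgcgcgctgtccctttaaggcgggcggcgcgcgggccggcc
The *Sp5* window held 1 CTTTGAT on its own strand, from 104 to 98 bases before the start site. The *Axin2* window held neither motif. The *Axin2* window was 69.2% G and C with 24 CpG dinucleotides, and the *Sp5* window 46% with 6. Of all 32851 windows of this length in the RefSeq table, 3.21% held CTTTGAT and 7.48% held either motif. RefSeq gave 15 windows for 9 of the members, and the *Sp5* window was the only one of these with a match (1 of 15). A match of these letters is a description of the sequence and not a binding site.

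Across the 10 genes the levels spanned a wide range. *Ctnnb1* was the most abundant, *Apc* and *Lgr4* were near or above 100 CPM, and *Nkd1*, *Rnf43*, *Sp5* and *Lef1* were below 1.36 CPM or at it in every library. Per kilobase of exon, which allows levels of different genes to be compared, *Ctnnb1* was at 171 CPM per kb in wild type, *Lgr4* at 23.7, *Apc* at 16.8, *Tcf7* at 15.6, *Tcf7l1* at 14.5 and *Axin2* at 3.59. The neighbours *Apc*, *Tcf7* and *Tcf7l1* kept this order in clone 3D, at 17.1, 13.3 and 12.2 CPM per kb. In 3C and 3M *Tcf7l1* was above both, and in 3M it was at 23.0 CPM per kb with *Tcf7* at 11.5. *Sp5* was the lowest in wild type at 0.025 CPM per kb. *Nkd1* was at 0.21, *Rnf43* at 0.12 and *Lef1* at 0.090 CPM per kb. Of the 10 members, 8 had enough counts to be tested. *Sp5* and *Lef1* had at most 9 counts in a library and were not.

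**Figure D1:**
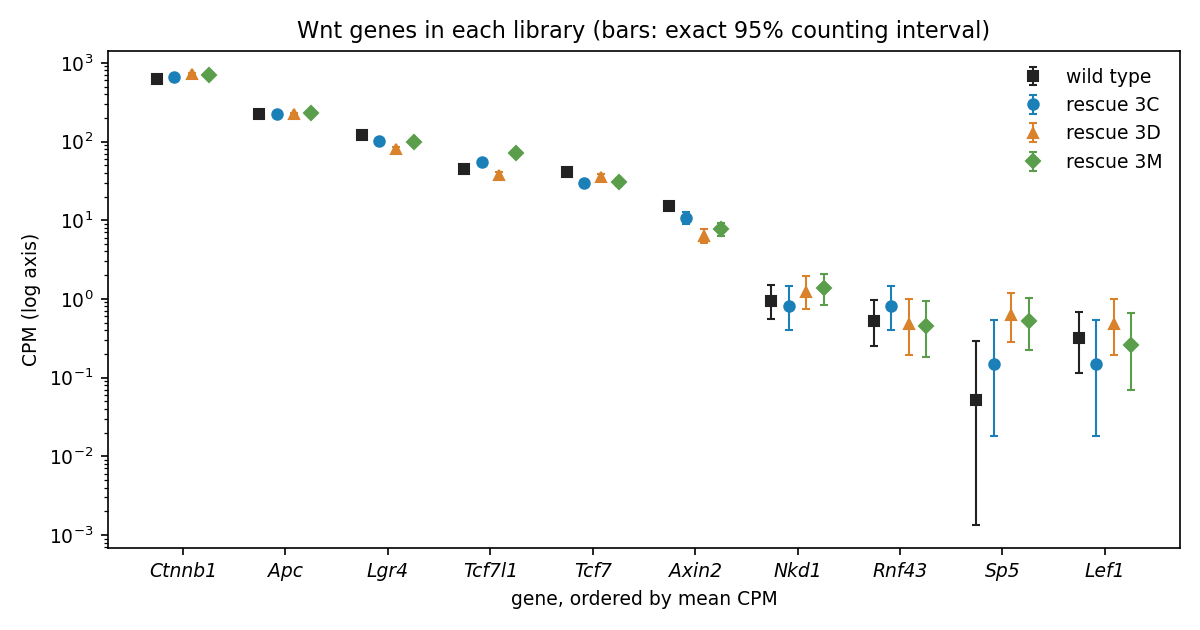
CPM of the 10 Wnt genes (log axis) in wild type (black squares) and the rescue clones 3C, 3D and 3M (coloured symbols), ordered by mean CPM, with exact 95% intervals that cover counting error only. *Axin2*, *Tcf7* and *Lgr4* were highest in wild type, and the intervals of *Nkd1*, *Rnf43*, *Sp5* and *Lef1* overlap between all libraries.

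Among the components that act at the membrane and in the cytoplasm, the destruction-complex scaffold *Axin2* and the R-spondin receptor *Lgr4* were lower in every rescue clone than in wild type, and *Apc* differed little between libraries. At an adjusted p of 0.01 edgeR and limma-voom called 0 of the 8 tested members, and DESeq2 called 0 of the 6 to which it gave an adjusted p (not *Nkd1* or *Rnf43*). In edgeR's test the background was 0.00754% of all genes (1 of 13267), and in DESeq2's it was 0.67% of genes with an adjusted p (64 of 9546). At an unadjusted p under 0.05 there were 3 members, *Axin2*, *Tcf7* and *Lgr4*, all lower in the clones, against 10.3% of all genes in either direction. All 3 clones were below wild type for these 3 tested members and above it for 2 (*Ctnnb1* and *Apc*), where 28.4% and 28.7% of all genes had all clones below and above. The median log2 fold change of the 8 tested members was 0.08, and that of all tested genes was 0.01. Of these members, *Rnf43* passed the low-count filter only through clone 3C, where it was highest. With at least 10 counts in every library, 7 members were tested and their median was 0.03. Taken clone by clone, the members' median log2 difference from wild type was -0.08 in 3C, -0.16 in 3D and -0.05 in 3M. The sign of the median thus depended on the measure.

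*Axin2* (chromosome 11, 108917828 to 108950783) is both a scaffold of the destruction complex and a widely used readout of Wnt signalling. It was counted 292 times in wild type, and 144, 92 and 118 times in 3C, 3D and 3M. Scaled for depth, its level was 15.3 CPM in wild type against 10.7, 6.32 and 7.62 CPM. Wild type was the highest library, the exact 95% counting intervals of wild type (13.6 to 17.2 CPM) and of the nearest clone, 3C (9.01 to 12.6 CPM), did not overlap, and the clones themselves differed by up to 1.69 times. The clones' mean was 8.21 ± 2.24 CPM (SD, n = 3), or 53.6% of wild type. The log2 fold change was -0.91 ± 0.27 (SE; edgeR adjusted p = 0.36). Over the alternative settings the fold change lay between -1.13 and -0.75 and the adjusted p between 0.052 and 0.89, the lowest without clone 3D.

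*Axin1*, the paralogous scaffold that is not known as a Wnt target, was at 76.5 CPM in wild type, against 77.1, 76.1 and 76.4 CPM in the clones. It was chosen for this comparison after its values were seen. Its log2 fold change was 0.0004 ± 0.08 (SE; edgeR adjusted p = 0.999), so the lower level in the clones was seen for 1 of the 2 Axin genes, although the difference between them was not tested.

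*Apc* is the large scaffold that binds β-catenin in the destruction complex. It was at 221 CPM in wild type and at 223, 224 and 230 CPM in the clones, which were all slightly above wild type and had a CV of 1.71%. The log2 fold change of *Apc* was 0.03 ± 0.06 (SE; edgeR adjusted p = 0.89), the smallest in size among the tested members.

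*Nkd1*, an inhibitor of Dishevelled that is induced by Wnt signalling, lies on chromosome 8 from 88521342 to 88594887. It was counted 18 times in wild type, and 11, 18 and 21 times in 3C, 3D and 3M. Its level was 0.94 CPM in wild type and 0.82, 1.24 and 1.36 CPM in these clones, which lay on both sides of wild type. Its log2 fold change was 0.28 ± 0.45 (SE; edgeR adjusted p = 0.86), and the counting interval of wild type, 0.56 to 1.49 CPM, held the values of all 3 clones.

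*Lgr4* (chromosome 2, 109917647 to 110014257) encodes a receptor for R-spondins, which protect Frizzled receptors from removal. Its counts were 2291 in wild type and 1352, 1175 and 1505 in 3C, 3D and 3M, or 120 CPM against 100.3, 80.8 and 97.1 CPM. Every clone was below wild type, with 3D the lowest. The clones' mean was 92.7 ± 10.5 CPM (SD, n = 3), or 77.2% of wild type, and the log2 fold change was -0.37 ± 0.13 (SE; edgeR adjusted p = 0.44). Over the alternative settings it lay between -0.43 and -0.28, with adjusted p-values from 0.069 to 0.88. *Lgr5* had at most 2 counts in a library, so *Lgr4* held most of the counts of this receptor family here, with *Lgr6* at 33 counts in wild type, against 16, 45 and 28 in the clones. Both were named after their values were seen.

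*Rnf43*, the membrane E3 ligase that removes Frizzled and that R-spondins and Lgr4 restrain, lies on chromosome 11 from 87663087 to 87735539. It was counted 10 times in wild type, and 11, 7 and 7 times in 3C, 3D and 3M. Only 3C, its highest library, brought it past the low-count filter, so its fold change was not independent of that filter. The counting intervals of all 4 libraries overlapped, and the pooled clones were at 1.10 times wild type (95% exact interval 0.51 to 2.56, counting error only). The log2 fold change of *Rnf43* was 0.13 ± 0.58 (SE; edgeR adjusted p = 0.96). Its paralog *Znrf3*, named after its values were seen, was at 31.6 CPM in wild type, against 27.5, 31.1 and 30.1 CPM in the clones, which were all below wild type, and most of the counts for this pair of ligases came from *Znrf3*.

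**Figure D2:**
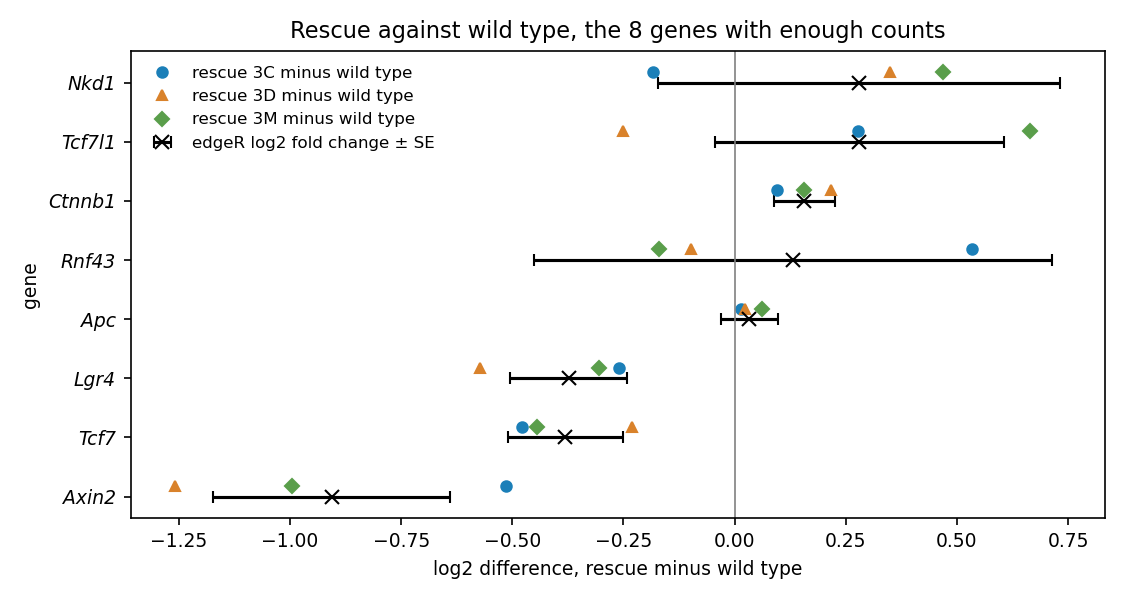
Log2 difference between rescue and wild type for the 8 tested Wnt genes. Crosses with bars are edgeR's fold change ± standard error, and coloured symbols give each clone minus the same wild-type library. *Axin2*, *Tcf7* and *Lgr4* lie below 0 in all clones, *Ctnnb1* and *Apc* above it, and *Tcf7l1*, *Nkd1* and *Rnf43* have clones on both sides.

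In the nucleus, *Ctnnb1* was slightly above wild type in every clone, *Tcf7* was below it in every clone, and *Tcf7l1* had clones on both sides of it. *Ctnnb1* (chromosome 9, 120933400 to 120960507) was counted 11839 times in wild type, and 8946, 10491 and 10710 times in 3C, 3D and 3M. Scaled for depth this was 621 CPM in wild type, against 664, 721 and 691 CPM in the clones. All clones were above wild type, by 11.5% on average, and the log2 fold change was 0.16 ± 0.07 (SE; edgeR adjusted p = 0.51). These are RNA levels, and the amount of β-catenin protein, which the destruction complex controls, was not measured.

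*Tcf7* encodes TCF1, which activates targets when bound by β-catenin, and lies on chromosome 11 from 52246527 to 52283383. Its counts were 783 in wild type, against 397, 509 and 467 in the clones, or 41.1 CPM against 29.4, 35.0 and 30.1 CPM. Wild type was the highest library, and clones 3C and 3M were nearly equal. The clones' mean was 31.5 ± 3.01 CPM (SD, n = 3), or 76.8% of wild type. The log2 fold change was -0.38 ± 0.13 (SE; edgeR adjusted p = 0.43), and it lay between -0.46 and -0.34 over the alternative settings. The adjusted p lay between 0.035, without clone 3D, and 0.90, without 3M.

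*Tcf7l1*, which encodes the repressor TCF3, lies on chromosome 6 from 72626371 to 72789045. It was counted 852 times in wild type, and 730, 546 and 1098 times in 3C, 3D and 3M. In CPM it was at 44.7 in wild type and at 54.2, 37.5 and 70.9 in these clones. Clone 3D was below wild type, 3C and 3M were above it, and the highest clone had 1.89 times the level of the lowest, the widest spread among the members with over 100 counts in wild type. The log2 fold change was 0.28 ± 0.33 (SE; edgeR adjusted p = 0.80). It rested on single clones, being 0.49 without 3D (adjusted p = 0.056) and 0.035 without 3M (adjusted p = 0.99), both from edgeR's test. The unstranded column held between 85.2% and 86.7% of these *Tcf7l1* counts, and GENCODE places exons of *Gm15401* on the opposite strand over 84 of its exonic bases. The strand-specific counts used here separate the strands.

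*Lef1* (chromosome 3, 131110297 to 131224357), the TCF/LEF member that is itself a Wnt target, was counted 6 times in wild type, and 2, 7 and 4 times in the clones. The pooled clones were at 0.95 times wild type (95% exact interval 0.34 to 3.05, counting error only), so at this depth a difference of up to about 3 times in either direction was not detectable. Over the 4 TCF/LEF genes taken per kilobase of exon, *Lef1* made up between 0.12% and 0.41% of the total. *Tcf7* made up 41.5% in wild type and 30.6%, 39.7% and 27.0% in 3C, 3D and 3M, and *Tcf7l1* made up 38.4% in wild type and 47.9%, 36.3% and 54.1% in these clones. The ratio of *Tcf7l1* to *Tcf7* per kilobase was 0.93 in wild type, 0.91 in 3D and 1.57 in 3C, and it was highest in 3M (23.0 against 11.5 CPM per kb), so clone 3D was close to wild type in this ratio and the others were above both. *Tcf7l2*, the remaining gene of the family and named after its values were seen, lay between 33.2 and 35.2 CPM in all 4 libraries.

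**Figure D3:**
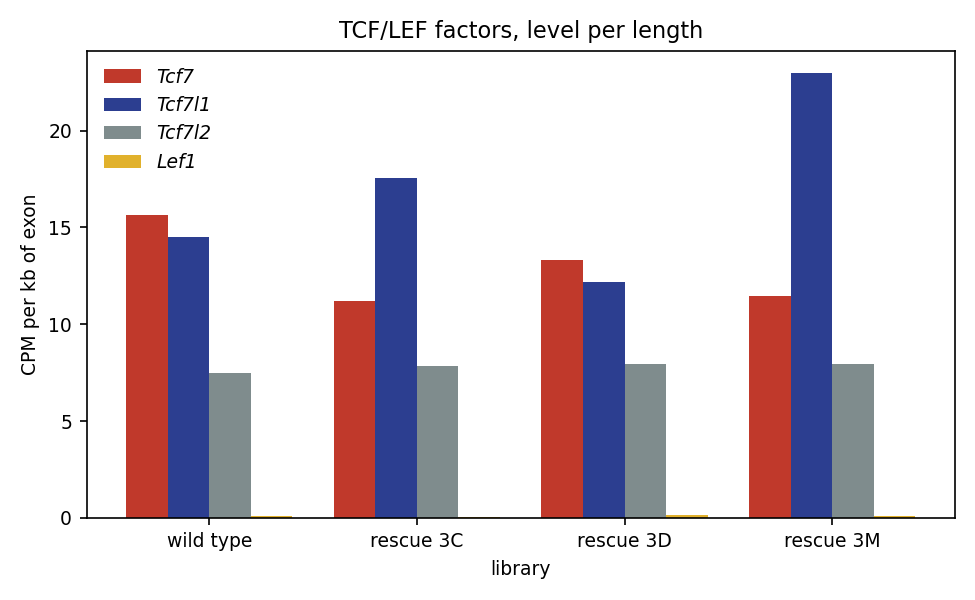
Level of the 4 TCF/LEF genes per kilobase of exon (CPM per kb, axis from 0) in each library; 1 bar is 1 library and has no error bar. *Tcf7l1* stands above *Tcf7* in clones 3C and 3M and slightly below it in wild type and 3D, and *Lef1* is near 0 in all 4.

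*Sp5* encodes a zinc finger factor that represses Wnt target genes and is itself induced by β-catenin. It lies on chromosome 2 from 70474923 to 70477726 and has the TCF/LEF core motif shown above its start site. A single read pair came from wild type (1 count), and 2, 9 and 8 counts from 3C, 3D and 3M. Wild type and 3C were low, and 3D and 3M were higher, although all were under 1 CPM. The pooled clones were at 8.33 times wild type (95% exact interval 1.32 to 346, counting error only), a ratio that rests on 1 wild-type count. The order of libraries was thus not that of *Axin2*, which was highest in wild type and lowest in 3D and 3M. With 0.62 CPM at most, *Sp5* was too low for edgeR's test.

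The wider pathway was described with a list of 108 genes grouped by role, the 10 members included. Of these, 80 had enough counts for the test and 28 did not, among them 6 with no count in any library. At an adjusted p of 0.01 edgeR and limma-voom called 0 of them, and DESeq2's Wald test called 1 of the 54 to which it gave an adjusted p, *Wnt7b*, where it called 0.67% of all genes (64 of 9546). At an unadjusted p under 0.05 edgeR's test gave 12 of 80, or 15%, with 6 higher and 6 lower in the clones, against the 10.3% of all genes. All clones were above wild type for 18 of the 80 genes and below it for 19, beside 28.7% and 28.4% of all genes. The median log2 fold change of the list was 0.01.

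Most ligands had too few counts, and 6 of 19 *Wnt* genes were tested. All clones were above wild type for 3 of these 6 and below it for 0, beside 28.7% and 28.4% of all genes. *Wnt7b*, the most abundant of them, was at 3.98 CPM in wild type and at 11.6, 10.3 and 19.0 CPM in 3C, 3D and 3M, above wild type in all of them. Its log2 fold change was 1.78 ± 0.44 (SE; edgeR adjusted p = 0.30). DESeq2's Wald test gave an adjusted p of 0.0057, while edgeR's gave 0.0018 without clone 3D, where 3.17% of all genes were called, and 0.72 without 3M. *Wls*, the carrier that brings Wnt ligands to the cell surface, was also higher in all clones, at 1.71, 1.99 and 2.52 CPM against 0.89 CPM in wild type (log2 fold change 1.22 ± 0.42 SE, edgeR adjusted p = 0.43). *Porcn*, which lipidates the ligands, was at 8.44 CPM in wild type and between 7.10 and 8.53 CPM in the clones.

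Of the receptors, 14 of 15 were tested. In edgeR's test 2 of these (14.3%) had an unadjusted p under 0.05, beside 10.3% of all genes. All clones were above wild type for 4 of the 14 and below it for 0, beside 28.7% and 28.4% of all genes. *Fzd1* was counted 3 times in wild type, and 7, 10 and 12 times in the clones (log2 fold change 2.03 ± 0.70 SE, edgeR adjusted p = 0.43). With 0.16 CPM in wild type, *Fzd1* passed the low-count filter only through the clones. Its place among the genes higher in the clones was thus not independent of that filter. *Ror2*, a receptor of Wnt5a outside the canonical route, was at 30.5 CPM in wild type, against 49.1, 44.6 and 39.1 CPM in the clones (log2 fold change 0.54 ± 0.15 SE, edgeR adjusted p = 0.34). *Ror2* lies on chromosome 13, whose 439 tested genes had median log2 differences from wild type of 0.50 in 3C, 0.02 in 3D and 0.50 in 3M. The differences of *Ror2* itself were 0.69, 0.55 and 0.36 in these clones, and the part of the chromosome in them was not tested. *Fzd5*, the most abundant receptor by CPM, was at 355 CPM in wild type, against 393, 389 and 352 CPM in the clones. None of the 10 members lies on chromosome 13, nor on chromosome 14, whose 446 tested genes had medians between 0.34 and 0.35 in the clones.

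Among the secreted modulators, *Rspo1* and *Sfrp4* were lower in all clones. *Rspo1*, an R-spondin ligand of Lgr4, was counted 26 times in wild type, and 9, 6 and 11 times in the clones (log2 fold change -1.18 ± 0.44 SE, edgeR adjusted p = 0.46). *Sfrp4*, a secreted Frizzled-related inhibitor on chromosome 13, was counted 135 times in wild type, and 54, 28 and 65 times in the clones (log2 fold change -1.07 ± 0.37 SE, edgeR adjusted p = 0.43). *Sfrp1*, the most abundant inhibitor, was at 118 CPM in wild type, against 114, 164 and 117 CPM in the clones, with only 3D standing apart. Of the 8 tested secreted inhibitors, 3 were below wild type in all clones and 0 above it in all, beside 28.4% and 28.7% of all genes.

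In the cytoplasm, 20 of 20 listed genes were tested. In edgeR's test 2 of these (10%) had an unadjusted p under 0.05, *Axin2* and *Gsk3b*, beside 10.3% of all genes. All clones were above wild type for 4 of the 20 and below it for 6, beside 28.7% and 28.4% of all genes. *Gsk3b*, the kinase that marks β-catenin for degradation, was at 73.9 CPM in wild type, against 98.7, 107 and 102 CPM in the clones, which all lay above wild type and close to each other. Its log2 fold change of 0.47 ± 0.08 (SE) came with the lowest edgeR adjusted p of the list, 0.20. Its paralog *Gsk3a*, named after its values were seen, was at 85.6 CPM in wild type and between 78.6 and 85.3 CPM in the clones. *Tnks2*, a tankyrase that promotes Axin turnover, was the most abundant gene of this role, at 471 CPM in wild type, against 428, 459 and 452 CPM in the clones.

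Of the nuclear effectors, 17 of 18 were tested. All clones were above wild type for 3 of these and below it for 5, beside 28.7% and 28.4% of all genes. *Ctnnbip1*, which blocks the binding of β-catenin to TCF factors, was at 12.7 CPM in wild type, against 9.64, 10.4 and 8.78 CPM in the clones (log2 fold change -0.41 ± 0.16 SE, edgeR adjusted p = 0.48). The adhesion partners of β-catenin were listed as a separate role, and 4 of 4 were tested. In edgeR's test 1 of these, *Ctnna1*, had an unadjusted p under 0.05, beside 10.3% of all genes. All clones were above wild type for 2 of the 4 and below it for 1, beside 28.7% and 28.4% of all genes. *Ctnna1*, which links β-catenin to actin at adherens junctions, was at 639 CPM in wild type and at 817, 750 and 742 CPM in the clones (log2 fold change 0.27 ± 0.08 SE, edgeR adjusted p = 0.34). *Ctnna1* was thus among the genes with all clones above wild type, as were *Ctnnb1* and *Gsk3b*. Of the 8 genes listed only as targets, *Sp5* among them, 4 were tested. In edgeR's test 0 of these had an unadjusted p under 0.05, beside 10.3% of all genes, and 4 genes are too few to compare with that share. *Ccnd1*, which encodes cyclin D1, was at 159 CPM in wild type, against 197, 166 and 191 CPM in the clones. The target *T* (brachyury), named after its values were seen, had 5 counts in wild type and 1 in each clone.

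**Figure D4:**
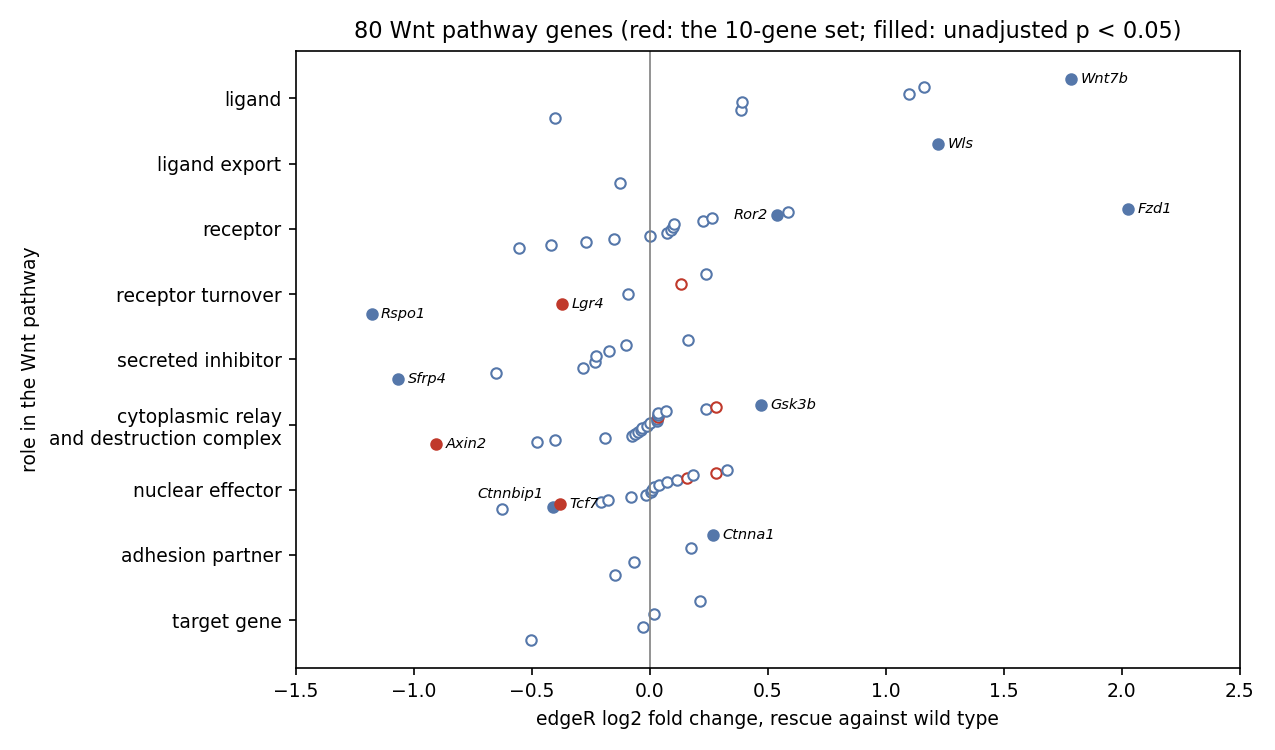
EdgeR's log2 fold change for the 80 tested Wnt pathway genes by role, rescue against wild type, 1 point per gene. Red points are members of the 10-gene set, and filled points with a name have an unadjusted p under 0.05; of these, 6 lie above 0 and 6 below it, and none passed the adjusted p of 0.01.

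The members with over 100 counts in wild type kept the sign of their fold change in every setting. All settings share the 1 wild-type library, and *Tcf7l1* had clones on both sides of it. The other such members had all 3 clones on 1 side, so leaving out a clone could not change their sign. *Axin2*, *Lgr4* and *Tcf7* stayed below wild type and *Ctnnb1* above it in each of the 12 alternative settings run. The number of members at an unadjusted edgeR p under 0.05 was 3, compared with 0 without clone 3M and 4 without 3D. The share of all genes at this level moved in the same way, from 10.3% to 5.71% without 3M and 18.6% without 3D. DESeq2's Wald test had 2 members at this level, *Axin2* and *Lgr4*, beside 4.39% of all genes.

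**Figure D5:**
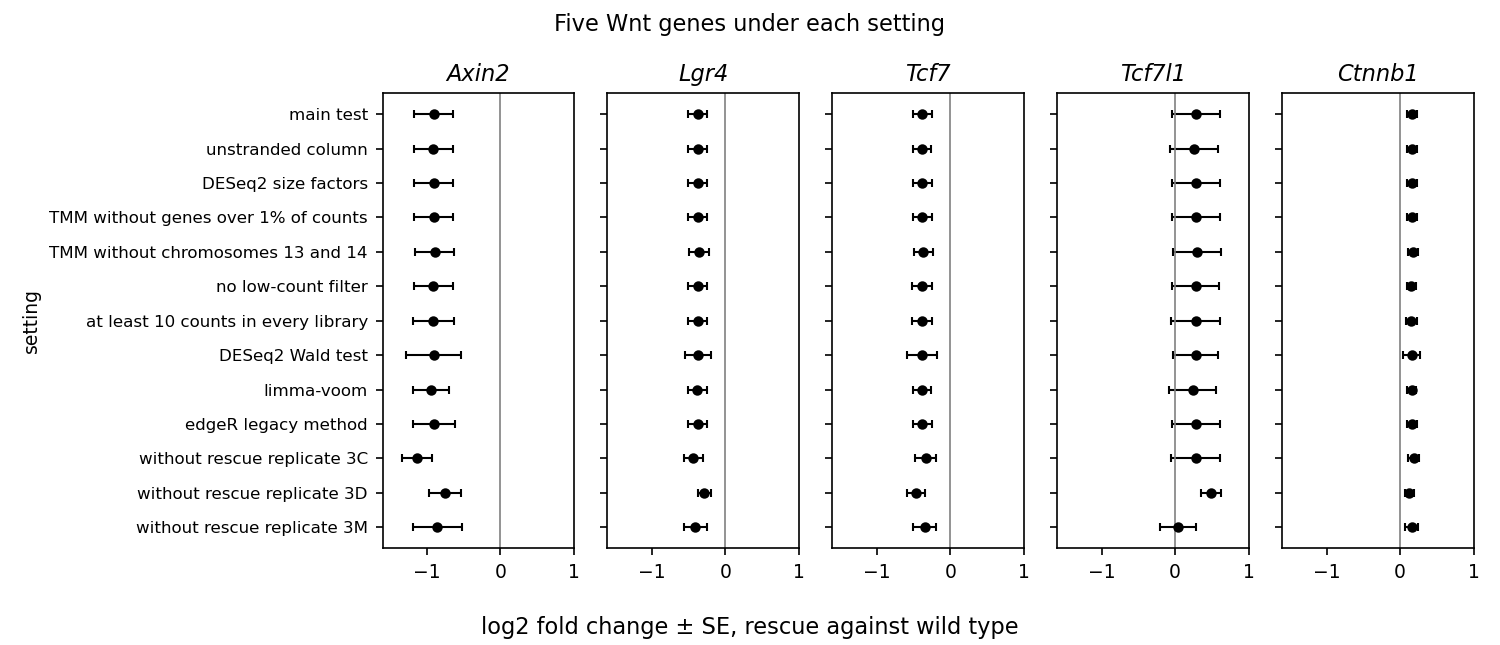
Log2 fold change ± standard error (x axis, rescue against wild type) of *Axin2*, *Lgr4*, *Tcf7*, *Tcf7l1* and *Ctnnb1* in the main test and under each of the 12 alternative settings. *Axin2* lies between -1.13 and -0.75 and *Lgr4* between -0.43 and -0.28, and *Tcf7l1* moves from 0.035 without clone 3M to 0.49 without 3D.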

How the data were processed

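RNA-seq libraries of 3 Morc3 rescue clones and 1 wild-type ES cell culture were used, grouped by the genotype in the labels. The authors aligned the read pairs to mm10 with STAR and deposited raw counts per gene, made from uniquely mapped pairs (their gene annotation: not given in the sources used here). The reverse-strand column was taken because the library kit is directional, and the forward column held 1.26% to 1.31% as many counts. Rows that name no gene were left out. They took up 47.3% of the wild-type read pairs and up to 54.9% of a clone's, mostly unassigned and unmapped ones.

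Counts were scaled by TMM, filtered with filterByExpr and tested by glmQLFit (legacy off) and glmQLFTest of edgeR 4.0.16, run in R 4.3.3, at an adjusted p of 0.01. DESeq2 1.42.0 and limma 3.58.1 (voom) were alternatives. Differences of single clones are in log2 CPM with a prior count of 2 and share the 1 wild-type library. The standard error is the log2 fold change over the square root of F. The steps were run on simulated counts with the same relative spread for every gene and changes larger than those of the tested members. That run does not bear on changes of the members' size. Intervals on counts are exact Poisson or binomial (95%) and cover counting error only. Positions are RefSeq's on GRCm38.p6, the assembly of mm10. Exon lengths are the union of GENCODE M21 basic exons. *Tle5* is listed as *Aes*. Named were the members, *Morc3*, and in each role of the pathway list the genes at an unadjusted p under 0.05 and the most abundant gene, as well as the most abundant gene of each marker list. The members and lists were chosen with earlier results of these data known.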

Additional observations from a re-analysis of the deposited data

How the results depend on the processing

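Of 181 values recomputed under 12 alternative settings and an adjusted p of 0.05, 169 were scored as the same. A member's fold change had to keep its direction and its side of the threshold. A missing adjusted p, as for *Nkd1* and *Rnf43* in DESeq2's test, was scored as not called. A median had to move by less than 1 SD of the clones' medians. A count of genes had to stay within a fixed ratio of the main count. Beside 12 genes, 9 and 14 were scored as the same, and 7 and 20 as moved. None of the members was called in any setting that gave it an adjusted p. The number of called genes, 1 in the main test, was 0 with at least 10 counts in every library, with limma-voom and with edgeR's legacy method (added after the data were seen), 64 with DESeq2's Wald test, and between 0 and 420 with each rescue clone left out, the highest without 3D. Of the pathway list, 0 genes were called, but 1 with DESeq2's test and 0 to 1 on leaving out single clones, *Wnt7b* in both cases. At an unadjusted p under 0.05, the list had 12 genes, 7 with DESeq2's test (of 102 with a p, beside 4.39% of all genes) and 5 (without 3M) to 20 (without 3D) on leaving out single clones, and the members had 3, and between 0 (without 3M) and 4 (without 3D). Over all genes the share was 10.3%, 5.71% without 3M and 18.6% without 3D, so these counts moved with the background. Leaving out a clone also changes the number of samples, and the cause was not tested otherwise. *Sp5* and *Lef1* were tested only without the low-count filter and with DESeq2. No paired analysis was possible because no clone shares a replicate number with wild type. Depth limits *Nkd1*, *Rnf43*, *Sp5* and *Lef1*, which had at most 21 counts in a library.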

Other observations

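Several pluripotency genes that Tcf7l1 is known to repress in ES cells were compared with it, chosen after their values were seen. *Nanog* was at 300 CPM in wild type and at 468, 358 and 481 CPM in clones 3C, 3D and 3M, all above wild type (log2 fold change 0.54, standard error 0.17, adjusted p = 0.40 from edgeR's test). *Nanog* was highest in 3C and 3M, which were also the clones with the most *Tcf7l1*. *Tfcp2l1*, at 1225 CPM in wild type and 1319, 1655 and 1401 CPM in the clones, was highest in 3D, the clone with the least *Tcf7l1*. *Klf2* was at 194 CPM in wild type and 199, 262 and 252 CPM in the clones. *Esrrb* was at 633 CPM in wild type and at 649, 697 and 634 CPM in the clones, with an adjusted p of 0.81 from edgeR's test. *Klf2* and *Esrrb* were thus also highest in 3D, and among these genes only *Nanog* was not. With 4 libraries no relation between these genes and *Tcf7l1* could be tested.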
